A study of Mus musculus with 16 samples.

Results

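Of the 50042 regions of histone H3 lysine 4 monomethylation (H3K4me1) mapped on chromosomes 1 to 19 of undifferentiated MC3T3-E1 cells, 6542 had no counterpart after differentiation, and these lost regions are described here. A region was lost when it overlapped no differentiated H3K4me1 region by 1 bp or more, and the other 43500 were kept. Members were thus chosen by the measured H3K4me1 lists of both states, and H3K4me1 itself is only described below. The lost regions made up 13.1% of the list (exact 95% interval 12.8 to 13.4) and 16.4 of its 336.1 Mb, or 4.88% of the bases. In the other direction, 9210 of 53375 differentiated regions had no undifferentiated counterpart and are called gained.

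MC3T3-E1 is a line of mouse pre-osteoblasts, which mineralise their matrix when differentiated. Chromatin immunoprecipitation with sequencing was compared between undifferentiated cells and cells differentiated over 15 days with ascorbic acid (50 µg/mL) and glycerol-2-phosphate (10 mM), all at passages 5 to 12 and all given ethanol vehicle for 3 h. The 7 antibodies were against H3K4me1, H4K5Ac, H3K9Ac, H3K4me3, H3K36me3 and the transcription factors RUNX2 and C/EBPβ. Each antibody and state had 1 list of merged biological replicates, so no comparison between states had a replicate check and no p-value was computed. Mineralised matrix was removed from the differentiated cultures only. H4K5Ac is the name on the antibody label, while the protocol has H3K5Ac. For differentiated H3K36me3 the title gave the state, because the cell line and treatment entries of that sample are garbled.

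H3K4me1 is laid down mainly by the MLL3 and MLL4 methyltransferases at enhancers and on the flanks of promoters. An enhancer that carries H3K4me1 without acetylation is usually called primed, and one that also carries histone acetylation is called active. H3K4me3 marks active promoters and H3K36me3 the bodies of transcribed genes. RUNX2, a runt-domain factor, and C/EBPβ, a basic leucine zipper factor, act in osteoblast differentiation. AP-1 is the family of Fos and Jun dimers, which bind distal enhancers in many cell types.

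The labelled cell type was checked by H3K36me3 over gene bodies and H3K4me3 at start sites. Col1a1, which encodes a type I collagen chain, was covered by H3K36me3 over 100% of its body in both states, the osteoblast factor gene Sp7 over 93.8% and then 99.8%, and Ibsp, a bone matrix sialoprotein gene, over 0% and then 86.5%. On the whole matrix and mineralisation list, 13 of 22 genes had H3K36me3 over more than 50% of the body before differentiation and 14 after, and 8 and then 11 had H3K4me3 at the start site. Alpl, the gene of the osteoblast alkaline phosphatase, was listed with neither mark in either state, as were Bglap, Dmp1, Mepe and Enpp1. Start sites with H3K4me3 in undifferentiated cells numbered 0 of 9 on the endothelial list, 0 of 8 on the neural list, 0 of 12 on the adipocyte list, 1 of 10 on the haematopoietic list (Cd34) and 1 of 12 on the muscle list (Pax3). On the chondrocyte list they numbered 2 of 12 (Sox9 and Sox6), and 4 of 12 genes had H3K36me3 over more than 50% of the body.

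Sequences from inside the widest lost regions are shown first, because they are where a bound factor or a motif coincided with the mark. All are mm9, plus strand, 5′ to 3′, and none overlaps an exon. Capitals mark the RUNX core TGTGGT, on either strand, within 50 bp of the centre of 3 RUNX2 peaks, each shown whole, from the 3 widest lost regions with such a peak. All 3 peaks were intergenic, and none had a differentiated RUNX2 peak on it.
RUNX2 peak by Cbln1, chr8:89848249-89848449: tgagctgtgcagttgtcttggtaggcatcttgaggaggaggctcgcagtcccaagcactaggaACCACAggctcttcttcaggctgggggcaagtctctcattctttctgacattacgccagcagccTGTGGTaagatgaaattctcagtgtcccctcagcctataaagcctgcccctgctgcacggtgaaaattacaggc
RUNX2 peak by Gm9956, chr10:56705576-56705776: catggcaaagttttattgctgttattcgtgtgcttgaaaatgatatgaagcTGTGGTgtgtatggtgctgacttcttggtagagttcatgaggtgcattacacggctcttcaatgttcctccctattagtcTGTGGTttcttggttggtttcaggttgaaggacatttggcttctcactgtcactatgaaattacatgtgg
RUNX2 peak by Syt10, chr15:89714288-89714488: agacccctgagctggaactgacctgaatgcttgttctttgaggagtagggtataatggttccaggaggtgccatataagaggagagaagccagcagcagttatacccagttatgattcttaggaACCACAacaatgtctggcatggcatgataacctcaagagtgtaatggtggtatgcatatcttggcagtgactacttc

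In 4 C/EBPβ peaks, capitals mark TTGCNNAA on either strand. The first 3 are from the widest lost regions with such a peak. All 4 were also intergenic and absent from the differentiated C/EBPβ list. The fourth, by Syt10, is shown because it lies in the same lost region as the RUNX2 peak by Syt10, the widest of the 6 lost regions that held both factors.
C/EBPβ peak by B430305J03Rik, chr3:61196797-61196997: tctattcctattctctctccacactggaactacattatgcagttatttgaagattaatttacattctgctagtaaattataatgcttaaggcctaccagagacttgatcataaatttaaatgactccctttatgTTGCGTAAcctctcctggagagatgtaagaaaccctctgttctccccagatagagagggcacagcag
C/EBPβ peak by 8030423J24Rik, chr13:71396533-71396733: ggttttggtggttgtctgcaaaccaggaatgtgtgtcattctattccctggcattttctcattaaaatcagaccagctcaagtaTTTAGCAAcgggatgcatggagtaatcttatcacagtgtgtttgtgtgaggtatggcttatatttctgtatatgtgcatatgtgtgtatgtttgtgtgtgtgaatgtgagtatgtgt
C/EBPβ peak by Ankrd55, chr13:113048713-113048913: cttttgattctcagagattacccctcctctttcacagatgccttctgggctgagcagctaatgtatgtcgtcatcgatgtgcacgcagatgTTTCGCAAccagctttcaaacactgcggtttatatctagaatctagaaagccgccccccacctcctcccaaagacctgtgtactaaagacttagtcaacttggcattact
C/EBPβ peak by Syt10, chr15:89717836-89718036: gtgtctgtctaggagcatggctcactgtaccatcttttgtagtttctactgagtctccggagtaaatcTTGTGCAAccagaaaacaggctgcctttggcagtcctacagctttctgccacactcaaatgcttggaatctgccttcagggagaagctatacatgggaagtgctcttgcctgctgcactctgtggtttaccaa

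The motif that set lost regions apart most was the AP-1 site TGACTCA. Capitals mark it, on either strand, in 151 bp windows from the 4 widest lost regions with at least 2 such sites in the central 1 kb. The region by B430305J03Rik carries both a C/EBPβ peak and AP-1 sites, and the region by Ank2 lies in an intron of that gene.
Window by Cd81, chr7:150224072-150224222: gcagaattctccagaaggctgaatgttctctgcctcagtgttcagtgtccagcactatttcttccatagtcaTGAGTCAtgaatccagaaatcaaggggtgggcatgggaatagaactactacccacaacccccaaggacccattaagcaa
Window by B430305J03Rik, chr3:61199465-61199615: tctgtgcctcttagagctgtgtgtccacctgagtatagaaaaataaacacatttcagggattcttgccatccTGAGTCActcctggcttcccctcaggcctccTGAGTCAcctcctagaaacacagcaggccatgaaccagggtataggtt
Window by Bmper, chr9:23374174-23374324: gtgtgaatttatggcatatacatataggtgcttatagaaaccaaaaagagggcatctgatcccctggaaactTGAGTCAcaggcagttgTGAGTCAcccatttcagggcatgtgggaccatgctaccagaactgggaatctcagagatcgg
Window by Ank2, chr3:126693047-126693197: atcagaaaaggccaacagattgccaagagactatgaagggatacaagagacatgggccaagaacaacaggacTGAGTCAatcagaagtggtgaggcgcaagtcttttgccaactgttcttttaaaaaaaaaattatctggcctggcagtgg

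The lost regions were the narrow, low-scoring end of the undifferentiated list. Their median width was 2032 bp (quartiles 1539 and 2961, highest 17475), against 4869 bp for kept regions, and their median deposited score, the authors' own value, was 12.9 against 40.8. By width, 46.2% of the narrowest decile and 0.080% of the widest were lost, and by score 45.9% of the lowest decile and 0.020% of the highest (1 of 5005 regions). Of the lost regions 98.4% were merged from 2 peaks, the smallest number in the list, against 83.8% of kept regions. These values come from the immunoprecipitation that defined the loss, so they describe the members and are not tested. Gained regions were also narrow, with a median of 2052 bp in the differentiated list.

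**Figure D1:**
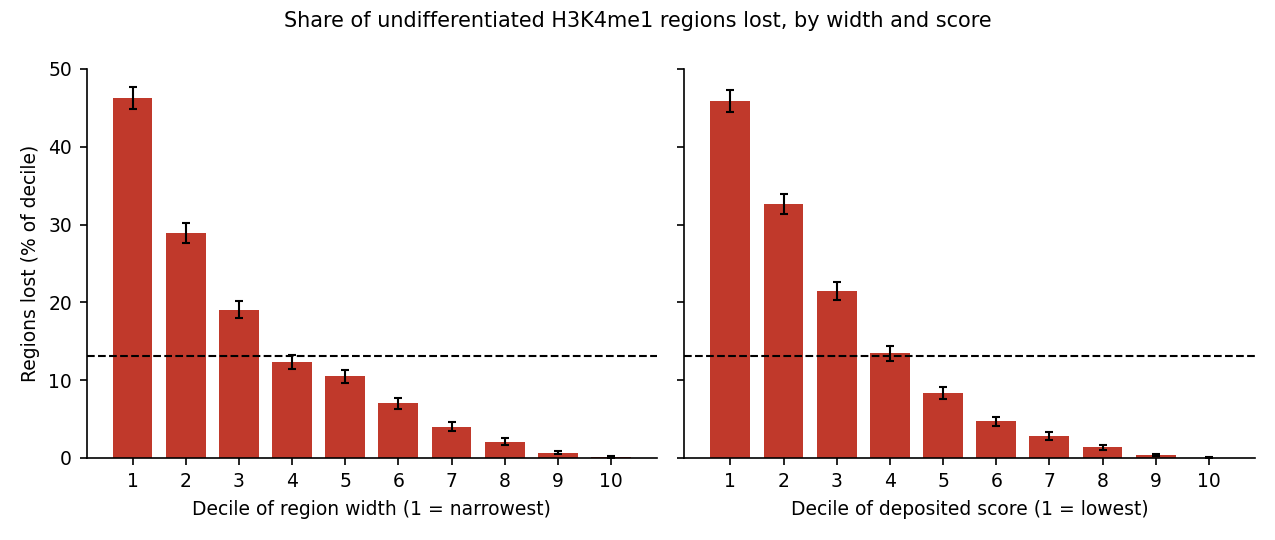
Share of undifferentiated H3K4me1 regions lost (bars, percent of each decile, with exact 95% intervals) by decile of region width (left) and of deposited score (right), and the dashed line is the share over all regions, 13.1%. The share lost is 46.2% in the narrowest decile and 45.9% in the lowest score decile, and under 1% in the 2 highest deciles of each.

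The rule's threshold fell in a thinly filled stretch. The 3 lost regions closest to it lay 33, 88 and 92 bp from a differentiated region, and the 3 kept regions closest to it were covered over 66, 67 and 252 bp. Only 42 lost regions (0.642%) had a differentiated region within 1 kb. The median gap was 7211 bp, and 37.3% lay within 5 kb of a differentiated region, 60.8% within 10 kb and 91.7% within 50 kb. Kept regions were covered by differentiated regions over a median of 94.3% of their width. Some were mostly uncovered: with regions under 50% covered counted as lost, the number lost was 8454 in place of 6542. The lowest deposited score was 3.1 in the undifferentiated and 10.5 in the differentiated H3K4me1 list. Scores of different lists cannot be set against each other, and the part that sequencing depth or calling thresholds have in the losses was not tested.

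Most lost regions carried H3K4me1 and nothing else that was mapped. Before differentiation, 3831 of 6542 (58.6%, 57.4 to 59.8) overlapped none of the 4 other marks and no RUNX2 or C/EBPβ peak, against 12.2% of kept regions. Read the other way, 41.8% of the 9157 regions with no other mark or factor were lost, against 6.63% of those with any. A further 20.9% of lost regions had H4K5Ac without the other 3 marks, 12.3% had H3K36me3 without the other 3, and 5.73% had both.

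H4K5Ac, an acetylation of active regulatory regions, was on 1753 lost regions before differentiation (26.8%, 25.7 to 27.9) and on 83.1% of kept regions. Narrow regions overlap anything less often, and kept regions weighted to the widths of lost ones gave 61.0%, so the difference of 56.3 points narrowed to 34.2 points (32.9 to 35.6). Of the 1753, only 219 still had H4K5Ac after differentiation (12.5%, 11 to 14.1), against 84.2% of kept regions with H4K5Ac before. Lost minus kept, this was -71.7 points, and -59.1 points (-60.9 to -57.4) with kept regions weighted to the widths of lost ones. Regions with H4K5Ac before and not after were 14.5% of the whole list. New H4K5Ac appeared on 1.02% of the lost regions that had none, against 15.3% of such kept regions. At the centres of lost regions the share under H4K5Ac went from 24.5% to 3.47%, and at a distance of 20000 bp from 23.5% to 16.8%, so the decline was larger at the centre than in the surroundings.

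**Figure D2:**
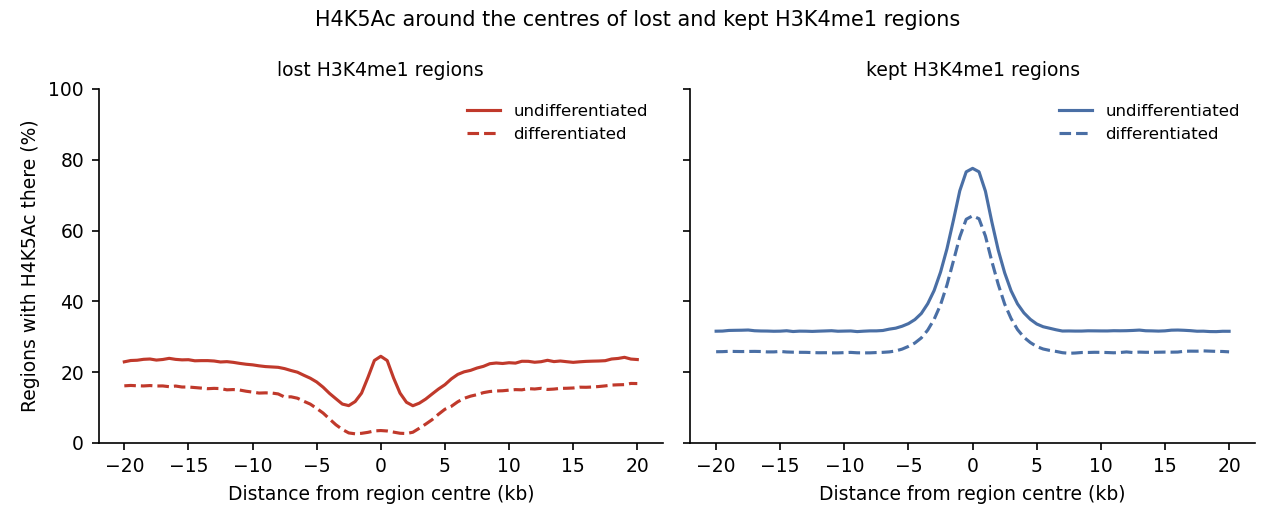
Percent of lost (left) and kept (right) H3K4me1 regions with H4K5Ac at each distance from the region centre (kb), in undifferentiated (solid) and differentiated (dashed) lists. At the centre the lost regions go from 24.5% to 3.47% and the kept regions from 77.6% to 64.2%.

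H3K36me3, the gene-body mark, behaved differently at the same regions. It was on 1177 lost regions before differentiation (18%) and on 1150 after (17.6%), against 38.8% and 38.3% of kept regions, or 23.1% and 23.5% with kept regions weighted to the widths of lost ones. The difference before differentiation thus went from -20.8 to -5.08 points (-6.21 to -3.96) under the weighting. Of the 1177, 1089 still had it (92.5%, 90.9 to 94.0), against 92.0% of kept regions with H3K36me3, a difference of 0.509 points (-1.18 to 1.94). Regions with H3K36me3 before and not after were 2.87% of the whole list. In the central 1 kb alone the difference was 2.99 points (1.13 to 4.59).

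The promoter-type marks were nearly absent. H3K4me3 overlapped 2 lost regions before and 6 after, and H3K9Ac, another acetylation of active promoters and enhancers, overlapped 14 (0.214%) before and 22 (0.336%) after. Of these, the 2 with H3K4me3 and 1 of the 14 with H3K9Ac had lost it, and such regions were 0.560% and 0.204% of the whole list. Among kept regions H3K4me3 went from 16.2% to 18.7% and H3K9Ac from 30.3% to 44.4%. Weighted to the widths of lost regions, the kept shares were 5.76% and 7.26% for H3K4me3 and 11.8% and 21.3% for H3K9Ac. Many of the exceptions lay at start sites. At Trim27, a ubiquitin ligase gene, H3K9Ac covered 66.5% of the lost region before and 80.1% after while H3K4me3 went from 0% to 27.3%. At Kifc1, a kinesin gene, the lost region had 2 RUNX2 peaks and H4K5Ac over 90.7% before and neither after, and H3K4me3 went from 0% to 45.6%. Trim27 was chosen after its values were seen.

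**Figure D3:**
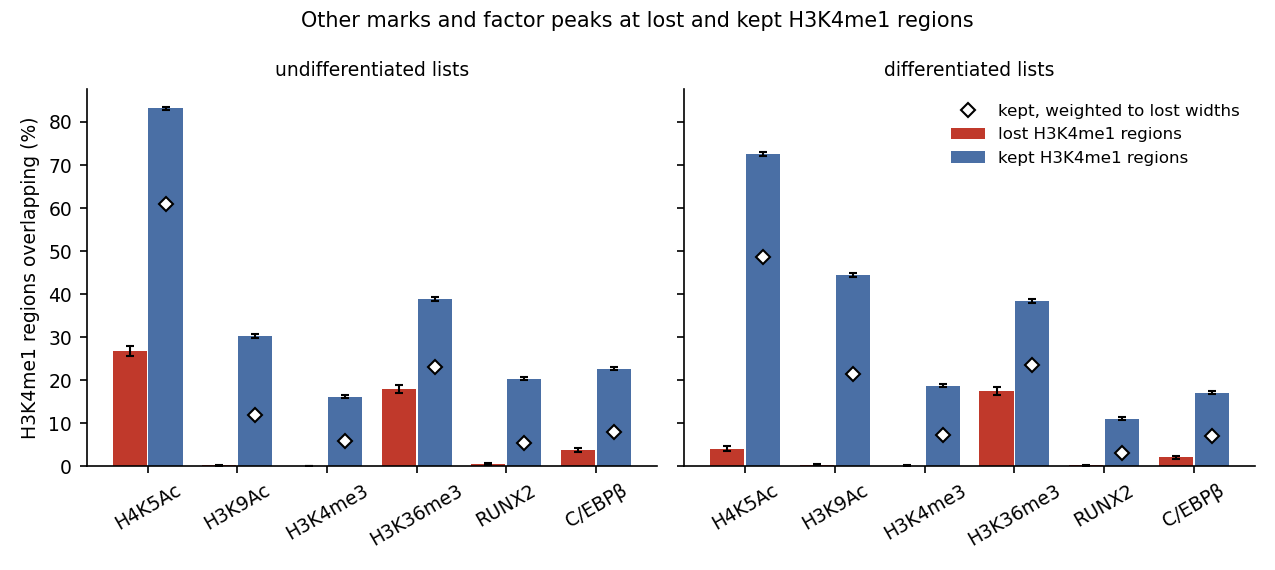
Percent of lost (red) and kept (blue) H3K4me1 regions that overlap each other mark or factor peak, in undifferentiated (left) and differentiated (right) lists, with exact 95% intervals, and diamonds give kept regions weighted to the widths of lost regions. In every pair the lost regions are lower, also against the diamonds, and between the panels H4K5Ac at lost regions goes from 26.8% to 4.10% while H3K36me3 goes from 18% to 17.6%.

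Lost regions held few factor peaks, and fewer of RUNX2 than of C/EBPβ. RUNX2 peaks were in 34 lost regions before differentiation (0.520%, 0.360 to 0.726) and C/EBPβ peaks in 243 (3.71%, 3.27 to 4.20), against 20.4% and 22.7% of kept regions. With kept regions weighted to the widths of lost ones the kept shares were 5.29% for RUNX2 and 7.97% for C/EBPβ, both still higher. Of all undifferentiated peaks, 35 of 12567 RUNX2 peaks and 246 of 15397 C/EBPβ peaks lay in lost regions, and the C/EBPβ share was higher by 1.32 points (1.10 to 1.54). After differentiation it was higher by 1.12 points (0.866 to 1.37).

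Most factor peaks in lost regions were not listed after differentiation, and neither were most of those in kept regions. Both whole lists shrank, RUNX2 from 12567 to 6231 peaks and C/EBPβ from 15397 to 10651. The part of list length in the shares was not tested. Of the 35 RUNX2 peaks in lost regions, 4 were still listed after differentiation (11.4%, 3.20 to 26.7), against 37.1% of RUNX2 peaks in kept regions. Of the 246 C/EBPβ peaks 73 remained (29.7%, 24.0 to 35.8), against 43.6%. By region, 30 of the 34 lost regions with RUNX2 and 169 of the 243 with C/EBPβ had none after. Regions with the factor before and not after were 9.94% of the whole list for RUNX2 and 9.03% for C/EBPβ, both above their share of the 6542 lost regions, few of which were bound. New peaks were rare: RUNX2 appeared in 9 and C/EBPβ in 63 lost regions that had none before, the latter 1.00% against 5.65% of such kept regions.

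The factor peaks that lay in lost regions held their own motif more often than those in kept regions. TGTGGT was within 50 bp of the centre of 19 of 35 RUNX2 peaks in lost regions (54.3%, 36.6 to 71.2), against 35.8% of those in kept regions. TTGCNNAA was near the centre of 120 of 246 C/EBPβ peaks (48.8%, 42.4 to 55.2), against 4647 of 14064 (33.0%). Over all C/EBPβ peaks, which include those outside any H3K4me1 region, it was in 5427 of 15397 (35.2%). Peaks outside any H3K4me1 region were not compared on their own, so the trait is not shown to be particular to lost regions. Among peaks more than 5 kb from a transcription start site (TSS) the shares were 65.5% against 42.9% for RUNX2 and 49.5% against 33.1% for C/EBPβ. The regions held both factors in 6 cases. The widest of these, 43.5 kb from Syt10, was covered by H4K5Ac over 99.7% before and 0% after, and those by St18 and Nek11 also lost both factors and all H4K5Ac. The one 178.2 kb from Actbl2 lost both factors but had H4K5Ac over 0% before and 90.2% after. The one at the start site of Setdb1, a histone methyltransferase gene, kept its RUNX2 peak and lost its C/EBPβ peak, and H4K5Ac covered 41.6% of it before and 26.4% after.

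Lost regions lay away from promoters. The centre was within 1 kb of a TSS in 166 of them (2.54%), against 12.5% of kept regions, and intergenic in 57.5% against 43.7%. Introns held 37.7% against 41.3%, and exons 2.26% against 2.42%, a difference that includes 0 (-0.519 to 0.260 points). The median distance to a TSS was 30.5 kb for lost and 18.2 kb for kept regions, and 22.3% against 15.9% were more than 100 kb away. With kept regions weighted to lost widths the promoter difference was -7.44 points (-8.02 to -6.86) and the intergenic difference 6.83 points (5.38 to 8.28). The share lost ran from 10.0% on chromosome 11 to 15.8% on chromosome 12.

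The sequence at the centres of lost regions was somewhat poorer in G and C, with a median of 43.0% GC in the central 1 kb against 44.9%. Of 12 motifs searched on both strands of that window, the AP-1 motif TGANTCA stood furthest apart, in 52.4% of lost and 34.6% of kept regions, a difference of 17.8 points (16.6 to 19.1). With kept regions weighted to the GC content of lost ones the difference was 16.3 points, and weighted to their widths 14.0 points. The TEAD motif GGAATG followed among those that held under GC weighting, with 50.0% against 46.0%, and 3.8 points weighted. The GATA difference (AGATAA) was 5.98 points, and 1.53 under GC weighting. The GC box GGGCGG was rarer in lost regions, with a difference of -8.76 points, or -2.18 points weighted. The RUNX core TGTGGT was in 60.1% against 58.2%, a difference of 1.86 points that turned to -1.49 points weighted to widths and to -0.264 points among regions more than 5 kb from a TSS.

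The AP-1 difference was largest for 1 form of the site. TGACTCA was in the central 1 kb of 2670 lost regions (40.8%, 39.6 to 42.0), 24.2% of kept regions, 26.4% of all undifferentiated regions and 15.4% of gained regions. In windows 5 kb to the side of the same lost and kept regions it was in 16.4% and 15.9%. The form with A or T in the middle, TGAATCA, was in 19.1% against 14.0%, and the cAMP response element TGACGTCA, which CREB and ATF factors bind, in 0.749% against 1.03%. Over all 8192 words of 7 bases, counted with their reverse complements, 13 (0.159%) were more frequent in lost regions by 5 points or more. TGACTCA was the first of them at 16.6 points, and the highest word without 5 bases of the site in common was AGAAAAT at 6.19 points. These follow-ups were chosen after the motif results had been seen.

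**Figure D4:**
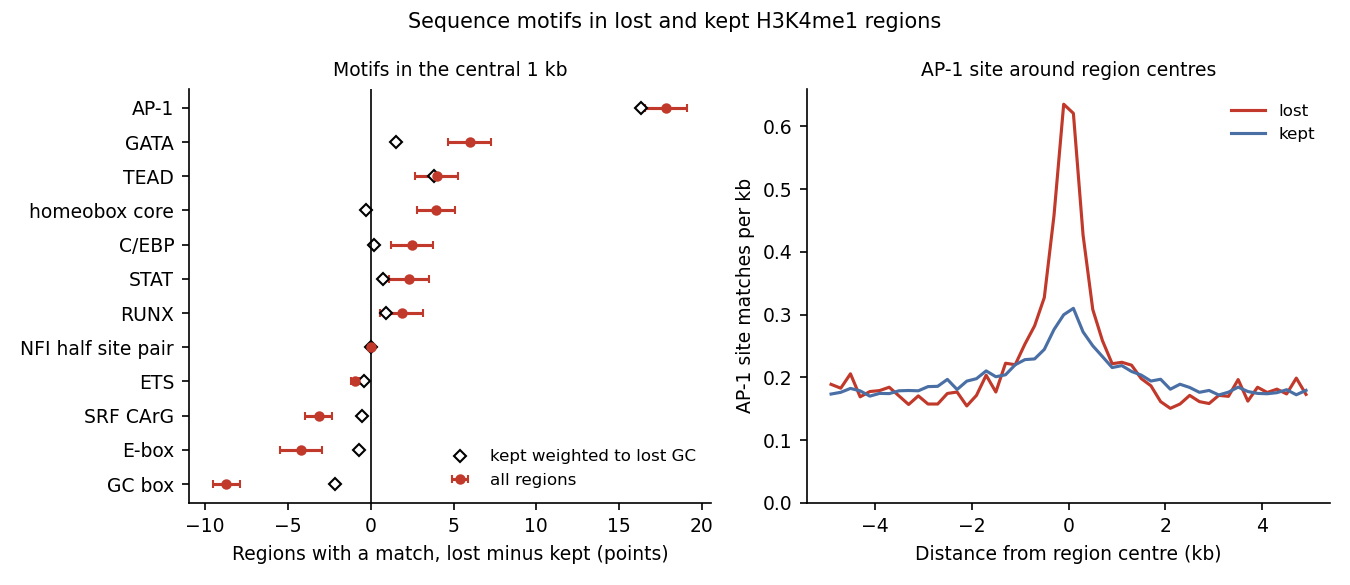
Left, difference in the percent of regions with each of 12 motifs in the central 1 kb, lost minus kept (points, red circles with 95% intervals, diamonds with kept regions weighted to the GC content of lost ones). Right, matches of the AP-1 site per kb by distance from the region centre (kb), which near the centre are 0.635 per kb for lost (red) and 0.300 for kept regions (blue) and about equal beyond 1 kb.

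The share of regions lost, which is the same contrast read the other way, differed with the number of AP-1 sites. It was 10.5% among regions with no TGACTCA in the central 1 kb, 19.4% with 1, 25.2% with 2 and 23.2% with 3 or more, and the intervals of the last 2 overlap. The excess was present in regions without H4K5Ac (43.3% of lost against 30.9% of kept) and with it (33.9% against 22.8%), in regions with no other mark or factor (43.9% against 31.4%) and in regions above the median score (37.2% against 23.8%). It was smaller in regions above the median width, at 4.69 points (1.57 to 8.09), and in the third width quintile it was 1.38 points with an interval that includes 0 (-1.48 to 4.45). In lost regions with H4K5Ac, that mark was gone in 86.9% of those with the site and 87.8% of those without, a difference of -0.966 points (-4.40 to 2.23). In kept regions with H4K5Ac, it was gone in 19.6% with the site and 14.7% without, a difference of 4.95 points (4.01 to 5.915). Of 10 genes of AP-1 and related proteins, named after their values were seen, Fosl2 lost 2 of 4 regions, Jun 2 of 8 and the other 8 none. Among those 8, Fosl1 had 0 undifferentiated regions to lose, Batf and Junb had 1 each and Jund had 2. Together the 10 genes lost 4 of 34 regions (11.8%), next to 12.2% of the regions of all genes.

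The region after a lost one was lost more often than the region after a kept one, but most lost regions stood alone. The next region along the chromosome was lost in 19% of cases after a lost region (18 to 19.9) and in 12.2% after a kept one. There were 195 runs of 3 or more consecutive lost regions, and 4338 lost regions (66.3%) stood alone. The longest run held 9 regions over 130.3 kb inside Kcnma1 (chr14:24369255-24499549), and no differentiated H3K4me1 region lay between its ends. Kcnma1 encodes the pore-forming subunit of the large-conductance calcium-activated potassium channel. The next held 8 regions over 198.9 kb around Slc19a3, Ccl20 and Wdr69 on chromosome 1, with 2 gained regions within its span. The third held 7 regions over 1643.3 kb from Dok5 past Cbln4 to Mc3r on chromosome 2, with 1 gained region within its span. Of its 7 regions, 5 had H4K5Ac before and 0 after.

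Loss and retention at Kcnma1 lay mostly in separate stretches. Of its lost regions 10 lay between 97.1 and 253.3 kb downstream of the start site, with 1 more 12.8 kb upstream, and most kept regions lay beyond 268 kb. The mapped stretch held 7 C/EBPβ and 0 RUNX2 peaks before differentiation, and 6 and 5 after. The 3 C/EBPβ peaks between 157.3 and 247.7 kb were absent after differentiation, and so was the peak at 319.9 kb, among the kept regions. New C/EBPβ peaks stood at 10.3, 271.3 and 273.2 kb. All 5 new RUNX2 peaks lay between 271.2 and 317.3 kb, also among the kept regions. At Ccl20, the gene of a chemokine that attracts CCR6-bearing lymphocytes, all 4 regions assigned to the gene were lost, 2 with H4K5Ac before and 0 after.

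**Figure D5:**
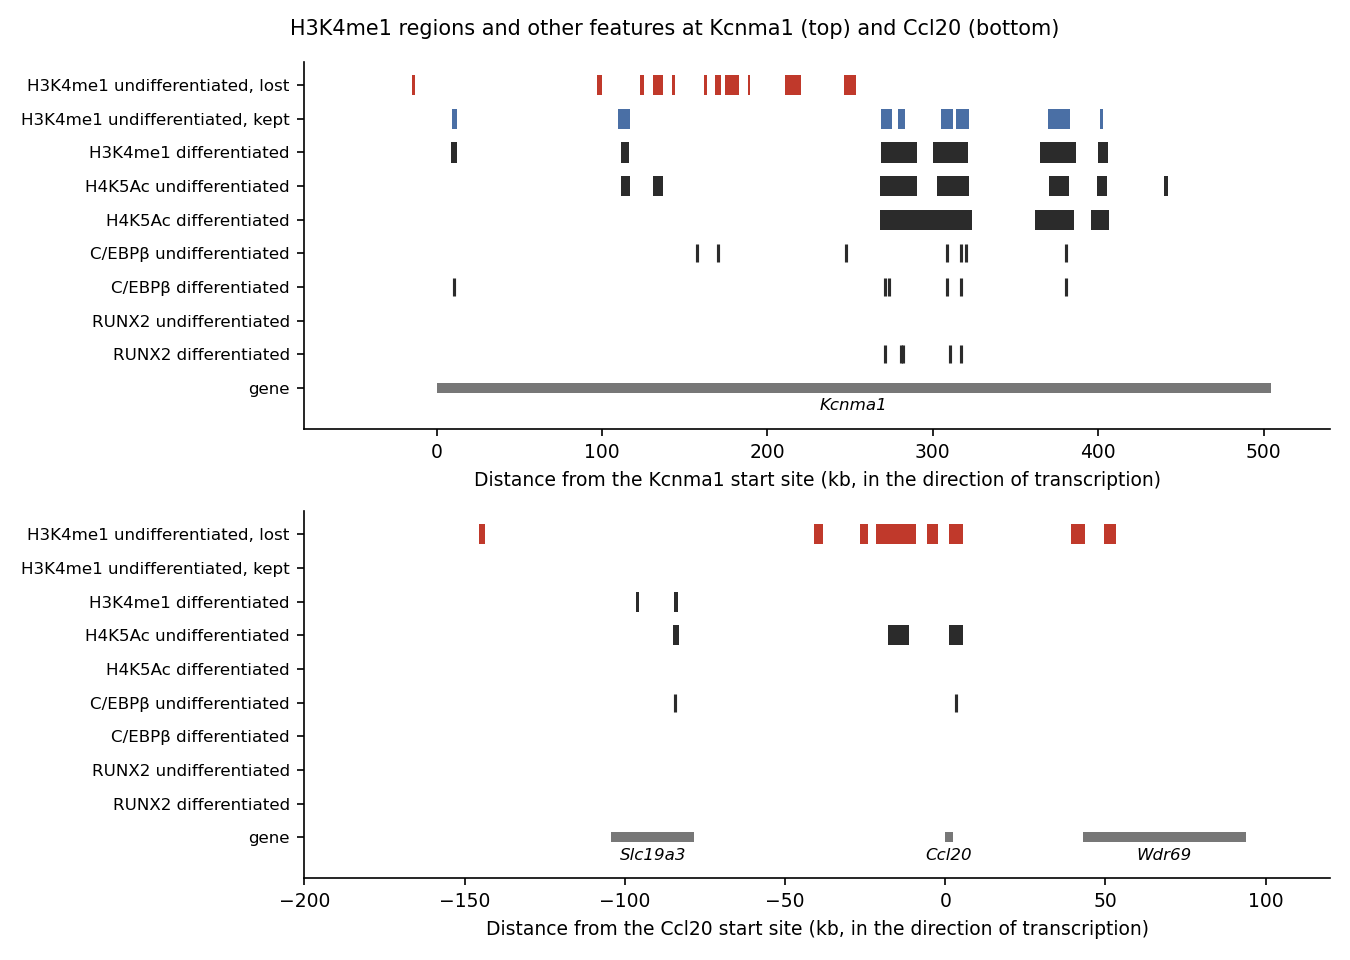
Positions of H3K4me1 regions, H4K5Ac regions (bars) and C/EBPβ and RUNX2 peaks (ticks) at Kcnma1 (top) and Ccl20 (bottom), by distance from the gene's start site in kb, with gene bodies in grey. Most lost regions (red) at Kcnma1 lie between 97.1 and 253.3 kb, and the 5 differentiated RUNX2 peaks stand further in, while at Ccl20 all 8 undifferentiated regions shown are lost.

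By nearest TSS within 100 kb, 5085 lost regions were assigned to 3633 of 21282 genes (17.1%), and 1457 lay farther from any TSS. At least 3 lost regions fell to 301 genes (1.41%). Of the 13724 genes with an undifferentiated region, 506 lost every one. Only 2 of the 3755 genes with at least 4 regions did so. After Kcnma1, with 11 of 18 lost, came Pde4d, a cAMP phosphodiesterase gene, with 10 of 28. Shank2, which encodes a synaptic scaffold protein, and Col6a6, a collagen VI chain gene, each lost 9 of 12. Slc8a1, the gene of a sodium-calcium exchanger, lost 7 of 17, and 6 of those 7 had H4K5Ac before and 0 after. The ankyrin genes Ank2 and Ank3 lost 7 of 22 and 6 of 34, and Tlr4, the endotoxin receptor gene, 6 of 9. Tnfsf11, which encodes the osteoclast differentiation ligand RANKL, lost 7 of 17, all 7 without a RUNX2 or C/EBPβ peak before. RUNX2 peaks assigned to Tnfsf11 went from 5 to 1, while the whole RUNX2 list went from 12567 to 6231 peaks.

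Among genes with at least 4 regions, the highest shares lost were 4 of 4 at Ccl20 and at Parm1, followed by 5 of 6 at Elovl7, a fatty acid elongase gene, and at Mapk10, which encodes the kinase JNK3. These counts depend on how regions are assigned: with any TSS within 20 kb, Kcnma1 had 2 lost regions, Col6a6 had 4 and Tnfsf11 had 1. Some of the lost regions assigned to Col6a6 lay in introns of the gene Col6a5. The widest lost region, 17475 bp, lay in an intron of Rarres1 (chr3:67300868-67318342), 9.84 kb from its TSS, and held 1 C/EBPβ peak before and 0 after. The highest-scoring lay 114.4 kb from Actr3b (chr5:25371873-25388707) and had no other mark or factor in either state. The second by score was 22.3 kb from Cx3cr1, the fractalkine receptor gene. Its single C/EBPβ peak was absent after differentiation.

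H3K36me3 over gene bodies gave a second readout of the genes next to lost regions. Over all genes, cover of the body fell by 10 points or more in 4.39% and rose by as much in 5.32%. Among genes with H3K36me3 and at least 4 regions, it fell in 36 of 200 with 3 or more lost regions (18%, 12.9 to 24.0) and in 8.61% of those with none lost, a difference of 9.39 points (4.41 to 15.5). It rose in 7.50% and 13.7%. Genes with at least 50% of regions lost did not show the difference, with 8.18% (3.81 to 15.0), and with any TSS within 20 kb it was 7.78 points with an interval that includes 0 (-1.37 to 23.4). Genes with 3 or more lost regions were also longer, with a median of 128.9 kb against 64.9 kb.

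Among the genes that fell were Sdpr, which encodes the caveolar protein cavin-2, with 6 of 10 regions lost and H3K36me3 cover going from 68.5% to 0%. Those 6 lay away from the gene. With any TSS within 20 kb Sdpr had 0 lost regions, and in its body plus 10 kb also 0. Kitl, the gene of the KIT ligand stem cell factor, went from 78.3% to 0% with 3 of 10 regions lost. Nrg1, a growth factor gene, went from 95.8% to 7.11% with 3 of 11 lost, and Gatm, a creatine synthesis enzyme gene, from 92.8% to 0% with 3 of 6 lost. Against this, cover rose by 10 points or more in 15 of the 200 genes with 3 or more lost regions. The largest rise was at Agap1, from 22.1% to 62.2% with 3 of 9 lost. Ank2, with 7 of 22 lost, rose from 15.3% to 27.9%. Kitl, Nrg1, Gatm and Agap1 were named after their values were seen. Kcnma1 and Shank2 had H3K36me3 over at most 0.301% of the body in either state, so most of their lost regions lay in genes with almost none of the mark.

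Of the 41647 regions assigned to all genes 12.2% were lost, and the shares of the gene lists are set beside that value as counts, with no test. Genes of the osteoblast matrix and mineralisation lost 4 of 90 regions (4.44%), from 3 of 22 members: Enpp1, a pyrophosphate-generating ectoenzyme gene, with 2 of 3, and the proteoglycan genes Omd with 1 of 2 and Ogn with 1 of 3. Col1a1, Col1a2, Spp1, Ibsp, Dmp1 and Postn lost none. Matrix remodelling genes lost 2 of 55 (3.64%), at Lox, which encodes the collagen cross-linking enzyme lysyl oxidase, and at Mmp10. Osteoblast transcription factor genes lost 11 of 90 (12.2%), with 0 of 5 at Runx2 and 0 of 1 at Sp7 and 2 of 5 at Hey1, a Notch target. Wnt signalling genes lost 19 of 157 (12.1%), among them 3 of 10 at the receptor gene Fzd1 and 3 of 12 at the antagonist gene Sfrp1. BMP and TGFβ genes lost 18 of 145 (12.4%), including all 3 at the receptor gene Bmpr1b and 2 of 4 at Bmp2.

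The osteoclast coupling and cytokine list lost 17 of 92 (18.5%), of which 7 were at Tnfsf11 and 3 of 9 at Il6. Lists of other lineages held 9 to 52 regions each, and their shares lay on both sides of that of all genes. Haematopoietic genes lost 9 of 25 (36%), with both regions of Itgam, 3 of 6 at Ptprc and 2 of 4 at Csf1r. Muscle genes lost 7 of 26 (26.9%), with 3 of 10 at Pax3 and 2 of 4 at Myf6, and endothelial genes 7 of 31 (22.6%), with 2 of 4 at both Pecam1 and Eng. Adipocyte genes lost 3 of 34 (8.82%), chondrocyte genes 3 of 52 (5.77%) and neural genes 0 of 9. Contractile and focal adhesion genes lost 14 of 123 (11.4%), including 3 of 6 at Ctgf. Cell cycle genes lost 10 of 68 (14.7%), among them 3 of 7 at Mki67, the proliferation marker gene. Over all 18 lists 92 of 287 distinct genes had a lost region (32.1%), against 17.1% of all genes, but the list members had a median of 3 regions and all genes of 1. With any TSS within 20 kb, 49 had one.

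Set beside the regions gained in differentiated cells, lost regions had H4K5Ac slightly more often in their own state, 26.8% against 24.1% (difference 2.68 points, 1.30 to 4.07). In the opposite state the values were far apart: H4K5Ac was on 4.10% of lost regions after differentiation and on 35.5% of gained regions before it. C/EBPβ was in 3.71% of lost and 3.16% of gained regions in their own state, a difference that includes 0 (-0.0185 to 1.15 points), and RUNX2 in 0.520% and 1.30%. H3K9Ac was on 0.214% of lost and 4.41% of gained regions. These shares come from lists of unequal extent, since the undifferentiated H4K5Ac list spans 335.3 Mb and the differentiated one 261.7 Mb, and the H3K9Ac lists hold 14596 and 23174 regions in that order. The part of list extent in the differences was not tested.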

How the data were processed

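Per the labels, each list holds merged peaks of biological replicates in MC3T3-E1 cells. Per the submitters' processing notes, the tools were Bowtie and HOMER and the build mm9. Versions and cut-offs not given in the sources used here are left out. The deposited score of each region is the authors' own value, and it was used only to rank regions within 1 list. Factor peaks all have a deposited score of 0. Input samples were not analysed here. Read depth is unknown, because the lists hold no counts, and list length can change with depth.

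Chromosomes 1 to 19 of 14 lists were used, with NCBIM37 (mm9) and GENCODE vM1. Overlap was 1 bp or more, positions are 1-based, and a promoter was within 1 kb of a TSS. Regions went to the gene of the nearest TSS within 100 kb. Shares have exact Clopper-Pearson 95% intervals and differences Newcombe 95% intervals (normal ones where weighted), which cover counting error only, since regions and genes are not replicates. Weighting used 10 bins of width or GC. Motifs were searched in the central 1 kb. Python 3.11.15, pandas 2.3.3, scipy 1.17.1 and pysam 0.24.0 were used, and the functions passed 15 of 15 checks on simulated data.

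The regions and the gene lists were chosen with earlier results of these data known. Named genes were list members, the 20 genes with most lost regions, the 10 with the highest share lost among those with at least 4 regions, the 10 widest and 10 highest-scoring regions, the 10 longest runs, regions with both factors, and for sequences the peaks with a motif in the widest regions, 1 per region, with chromosome 18 left out. Jun and other genes named after their values were seen are said to be so.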

Additional observations from a re-analysis of the deposited data

How the results depend on the processing

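No paired analysis was possible because each antibody and state has 1 merged list, with no replicate to leave out. Counting as lost only regions with no differentiated region within 5 kb gave 4099, regions above the median score 457 of 25025 regions, and regions at least 2 kb wide 3325 of 42193. Counting regions under 50% covered as lost gave 8454. The share of the other marks and factors in lost and kept regions kept its direction and its side of 0 in 72 of 72 comparisons, which included weighting by width and by width and score together, central windows and distal regions. For H3K36me3 still present, the central 1 kb gave 2.99 points. Width weighting shrank the mark and factor differences, such as H3K36me3 before differentiation from -20.8 to -5.08 points, without a change of sign. Among motifs, RUNX turned to -1.49 points weighted to widths and -0.264 points over 5 kb from a TSS, and the homeobox core to -0.303 points weighted to GC. Weighted to GC, intervals included 0 for RUNX (0.915 points), C/EBP (0.225), E-box (-0.705), STAT (0.762) and the pattern labelled SRF (-0.554). The cause was not tested. The pattern labelled SRF allowed any base at its middle positions and was in 88.5% of lost and 91.7% of kept regions. Its value is therefore not read as a result for SRF sites. TGACTCA stayed above 0 in its 8 alternatives, from 4.69 to 19 points. With any TSS within 20 kb, 49 list members had a lost region in place of 92, and the H3K36me3 difference of genes was 7.78 points with an interval that includes 0. Weighting by GC, weighting by width and score together, and all settings of TGACTCA, of motifs in factor peaks and of gene H3K36me3 were chosen after seeing the data.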
